A study of Homo sapiens with 15 samples.

Results

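The genes described here encode the heat shock chaperones of the cytosol, nucleus and mitochondria in LNCaP cells, a human prostate cancer line that depends on androgen signalling. They were chosen by name, with earlier results of these data known: rows whose name begins with HSPA, HSPB and a digit, HSP90A, HSPD1, HSPE1, HSPH1, DNAJA, DNAJB or DNAJC. Pseudogenes, antisense rows and 6 chaperones of the endoplasmic reticulum (HSPA5, HSPA13, DNAJB9, DNAJB11, DNAJC3 and DNAJC10) were left out, which kept 52 of the 98 rows with such names and 52 of the 17272 genes in the table. The names do not all match the compartment, since 8 of the 52 encode J proteins of the endoplasmic reticulum or secretory membranes and HSPB11 is better known as the intraflagellar transport protein IFT25. Further family members, among them HSPA6, HSPA7, HSPB2, HSPB3, HSPB6, HSPB7 and DNAJA4, are not listed in the table and were not analysed here.

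All cells were starved of steroids for 2 days in charcoal-stripped serum before a treatment of 22 h. In the R1881 group (10 libraries) they received 1 nM R1881, a synthetic androgen, and the solvent DMSO. In the combination group (5 libraries) they received 1 nM R1881 and 2 µM darolutamide, an androgen receptor antagonist, so both groups carried the androgen and the comparison asks how blocking its receptor changed gene expression. There was no group without androgen, and 1 cell line was used. The R1881 libraries are numbered 51 to 55 and 71 to 75 and the combination libraries 86 to 90 in the sample labels, so the treatment cannot be told apart from the run of library numbers.

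Libraries held 15830745 to 25317567 reads assigned to genes, and expression is given in the scaled counts per library that the authors deposited as CPM. All 8 markers of luminal prostate cells were listed, of which 5 were lower and 2 higher with darolutamide, with a summed level of 7103 to 8274 CPM in the R1881 libraries and 4367 to 4616 CPM in the combination libraries. Of 8 fibroblast markers, COL1A1, COL3A1, FN1 and LUM were listed and all 4 were higher with darolutamide, with a sum of 484 to 576 CPM in the R1881 libraries and of 1102 to 1219 CPM in the combination libraries. Among the other cell types, 1 of 3 basal markers (KRT14) and 1 of 3 endothelial markers (VWF) were listed, and 0 of 4 leukocyte markers were listed. The part of these shifts in the chaperone values was not tested, and in bulk RNA fewer cells of a type and less RNA per cell cannot be told apart.

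Chaperones of the HSP70 family bind stretches of unfolded protein and release them in a cycle driven by ATP. J proteins (DNAJA, DNAJB and DNAJC) deliver clients and trigger ATP hydrolysis, and the HSP110 proteins exchange the nucleotide so that the client is let go. HSP90 takes over folded but unstable clients, which in prostate cells include the androgen receptor before it binds hormone, while HSP60 and its lid HSP10 fold proteins inside the mitochondrion and small heat shock proteins keep unfolded proteins from clumping. Many of these genes are induced by heat shock factor 1 (HSF1), which binds heat shock elements, repeats of the letters GAA in alternating orientation.

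Heat shock elements were searched in the RefSeq promoter windows (GRCh38.p14, 250 bases before to 50 after each annotated start), which were found for 47 of the 52 genes and not for HSPA14, HSPB11, DNAJC1, DNAJC22 and DNAJC24. A 3-unit element (GAANNTTCNNGAA or TTCNNGAANNTTC, so that both strands and either phase are read) was found in 6 of the 47 genes (12.8%) and in 0.608% of all 27305 genes with a window. The shorter 2-unit form (GAANNTTC or TTCNNGAA, which every 3-unit match also holds) was found in 17 of 47 (36.2%) and in 16.2% of all genes. The stretches with the 3-unit element are shown because they carry the full binding motif of HSF1, and those of HSPA1A and HSPA1B because the pair is nearly identical in sequence. Capitals mark the 3-unit element, or in HSPA1A and HSPA1B, which lack it, the 2-unit form. Each sequence runs 5′ to 3′ on the strand of its gene.
HSPA8: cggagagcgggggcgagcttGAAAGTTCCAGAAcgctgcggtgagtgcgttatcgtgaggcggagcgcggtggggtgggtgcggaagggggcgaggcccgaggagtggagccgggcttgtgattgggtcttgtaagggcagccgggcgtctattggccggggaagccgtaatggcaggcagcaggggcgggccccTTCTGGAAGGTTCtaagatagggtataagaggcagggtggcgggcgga
HSP90AA1: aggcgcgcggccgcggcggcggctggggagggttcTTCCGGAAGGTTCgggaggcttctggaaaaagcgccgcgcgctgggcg
HSP90AB1: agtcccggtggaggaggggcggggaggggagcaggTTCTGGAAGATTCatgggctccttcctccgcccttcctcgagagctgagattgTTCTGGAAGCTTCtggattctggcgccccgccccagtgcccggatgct
HSPD1: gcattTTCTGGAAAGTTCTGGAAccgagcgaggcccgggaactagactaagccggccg
DNAJA1: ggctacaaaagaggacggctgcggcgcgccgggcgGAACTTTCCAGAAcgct
DNAJB6: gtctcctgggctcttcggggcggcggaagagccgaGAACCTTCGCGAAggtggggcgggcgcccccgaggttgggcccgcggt
HSPA1A: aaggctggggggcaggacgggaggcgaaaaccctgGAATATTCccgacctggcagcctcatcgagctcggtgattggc
HSPA1B: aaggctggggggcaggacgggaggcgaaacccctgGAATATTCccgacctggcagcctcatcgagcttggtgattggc
These stretches lie at chr11:123062144-123062386, minus strand (HSPA8), chr14:102087085-102087167, minus strand (HSP90AA1), chr6:44247743-44247878, plus strand (HSP90AB1), chr2:197500033-197500090, minus strand (HSPD1), chr9:33025241-33025292, plus strand (DNAJA1), chr7:157336838-157336920, plus strand (DNAJB6), chr6:31815402-31815479, plus strand (HSPA1A) and chr6:31827598-31827675, plus strand (HSPA1B). HSPA8 and HSP90AB1 hold the element at 2 places, and in HSPD1 overlapping matches form a longer run of units. A match says only that these letters are in the window.

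More chaperone genes were lower than higher with darolutamide, and the abundant ones that changed were all lower, by small amounts. With limma fitted on log2(CPM + 0.5) and a Benjamini-Hochberg adjusted p under 0.05 over all genes, 20 of the 52 were lower and 8 higher, while 24 did not pass. Of all genes 46.6% passed, 23.7% lower and 22.8% higher, so passing was common in general. The median log2 fold change was -0.04 over the 52 genes and 0.00 over all genes. When the reads were scaled by library totals alone, which moved the median of all genes to 0.07, the median of the 52 became 0.03, with 10 genes lower and 11 higher. Of all 17272 genes, 3030 were lower and 5326 were higher under that scaling, so rises outnumbered falls there in general. Under that scaling DNAJA2, DNAJA3, DNAJB1, DNAJB6, DNAJB14, DNAJC8, DNAJC11, HSPA9, HSPB11 and HSPD1 no longer passed as lower, and DNAJB4, DNAJC19 and DNAJC27 passed as higher. None of the 28 genes that passed changed sign under that scaling. All 20 falls and all 8 rises had the same direction against each run of R1881 libraries taken alone, and 13 falls and 6 rises passed the test against both. Both comparisons used the same combination libraries, and the genes were picked by the fit to both runs together. Agreement in direction is therefore partly built in and is no replication, and its share among all genes was not computed.

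**Figure D1:**
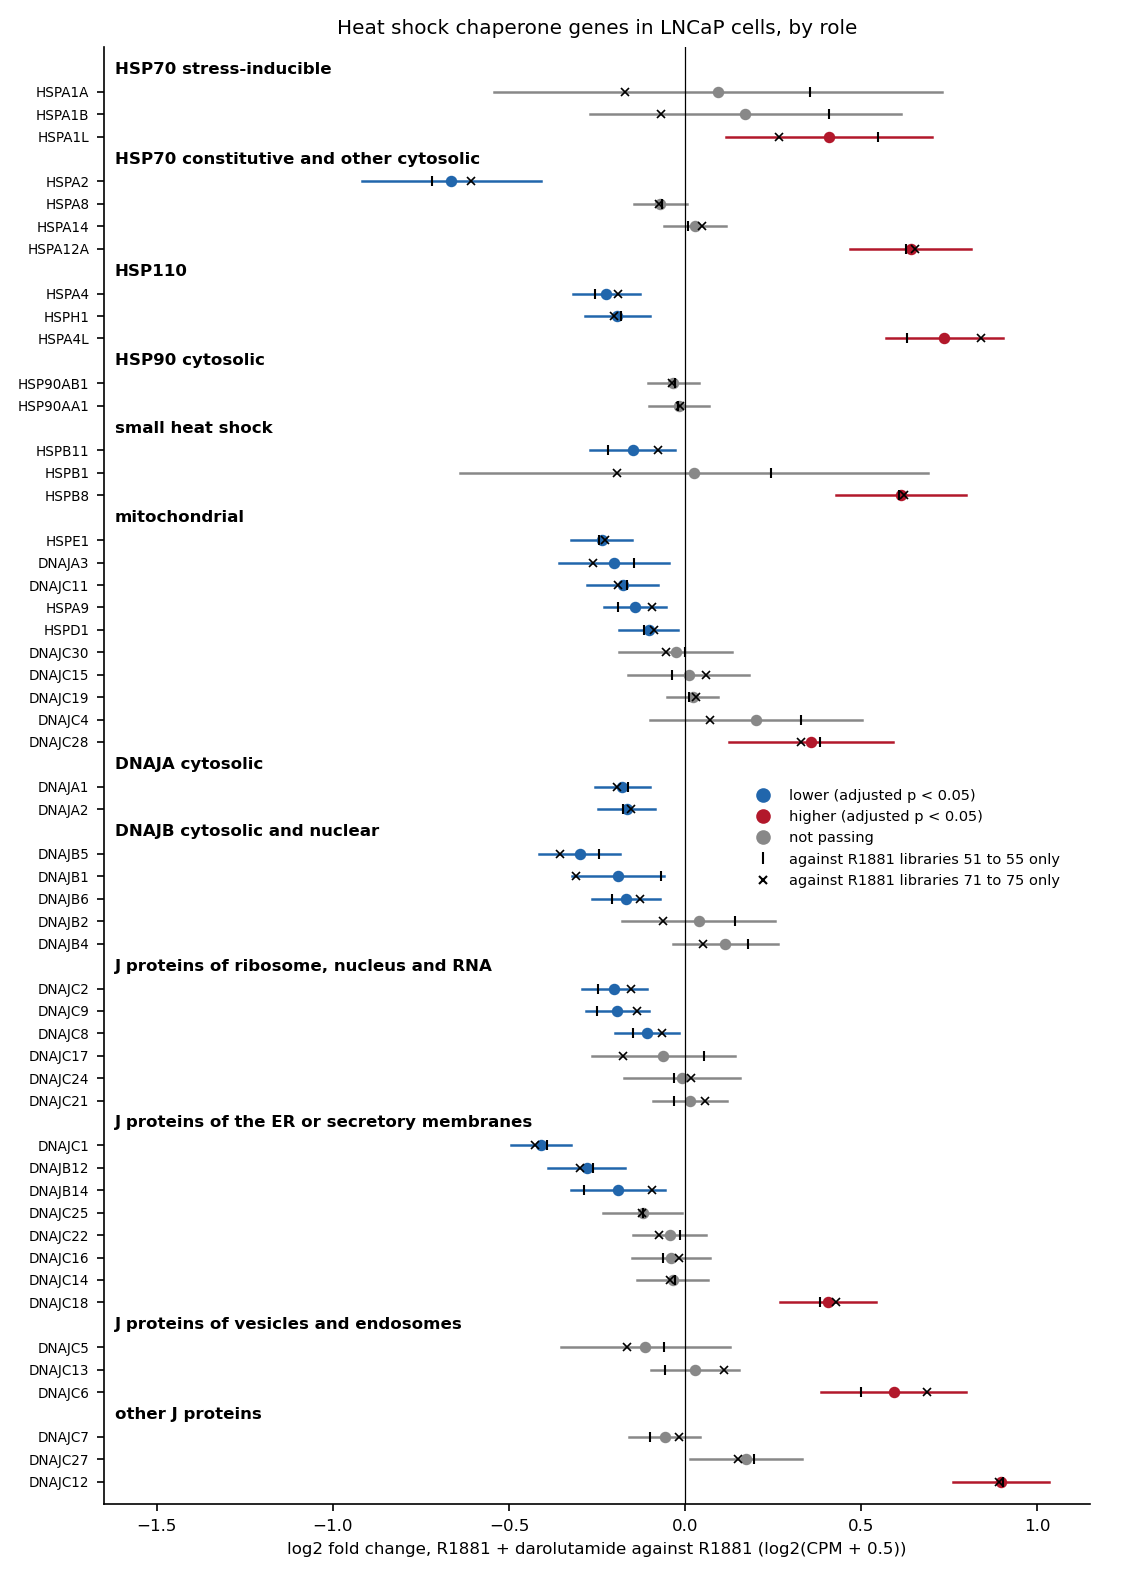
Log2 fold change of each of the 52 chaperone genes (combination against R1881, on log2(CPM + 0.5)), grouped by role, with bars for the 95% interval from limma, and with ticks and crosses for the fold change against R1881 libraries 51 to 55 or 71 to 75 alone. DNAJC12 at 0.90 and HSPA2 at -0.66 mark the ends of the range, most of the falls lie between -0.10 and -0.30, and HSPA1A, HSPA1B and HSPB1 have the widest intervals.

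Falls and rises were counted by level. Of the 17 genes with a mean of at least 100 CPM, 10 were lower and 0 were higher (4 lower and 0 higher with library totals). Among all 2436 genes at that level, 1103 were lower and 413 were higher, so falls outnumbered rises there in general. Of the 22 genes from 20 to 100 CPM, 8 were lower and 2 were higher, and of all 5814 genes at that level 1743 were lower and 1147 were higher. Of the 13 genes with a mean under 20 CPM, 2 were lower and 6 were higher, and of all 9022 genes at that level 1252 were lower and 2386 were higher. The combination libraries were all below the lowest R1881 library in 6 chaperone genes (DNAJC1, DNAJB5, HSPE1, DNAJC2, DNAJC9 and DNAJA1), beside 12.6% of all genes. They were all above the highest in 6 others (DNAJC12, HSPA4L, HSPA12A, HSPB8, DNAJC6 and DNAJC18), beside 10.8% of all genes.

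HSPA8, HSP90AB1 and HSP90AA1, the constitutive HSP70 and the cytosolic HSP90 pair, were the highest of the 51 genes with a transcript length per kilobase of transcript, at 1432, 976 and 576 CPM per kb with R1881. None of the 3 passed the test. HSPA8 was 3102, 3238 and 3377 CPM (lowest, median and highest) in the R1881 libraries and 3159, 3061, 3301, 2804 and 3124 CPM in combination replicates 1 to 5, so the groups overlapped and replicate 4 was lowest. Its log2 fold change was -0.07 (95% interval -0.15 to 0.01, adjusted p = 0.121 from limma), and -0.09 without combination replicate 3, where it passed (adjusted p = 0.0453). HSP90AB1 had a log2 fold change of -0.03 (-0.11 to 0.04) (adjusted p = 0.451) and HSP90AA1 of -0.02 (-0.10 to 0.07, adjusted p = 0.748), both from limma. Both turned positive, at 0.04 and 0.05, with library totals, and HSP90AA1 was at 0.03 without combination replicate 4. The ratio of the pair was also close, with 74.5 ± 1.84 reads of HSP90AA1 per 100 of HSP90AB1 with R1881 (SD, n = 10) and 75.4 ± 2.20 with the combination (SD, n = 5).

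The stress-inducible HSP70 genes HSPA1A and HSPA1B, and HSPB1, which encodes the small heat shock protein HSP27, differed more between libraries of 1 group than between the groups. HSPA1A was 43.4, 58.2 and 119 CPM (lowest, median and highest) with R1881 and 54.1, 58.6, 33.9, 196 and 60.3 CPM in combination replicates 1 to 5. The high value is that of combination replicate 4 and the low one that of replicate 3, while the other combination libraries lay near the R1881 median. HSPA1B followed the same order, at 114, 122, 89.3, 275 and 125 CPM with the combination and 87.5 to 189 CPM with R1881, and HSPB1 did too, at 39.8, 46.2, 20.2, 137 and 48.5 CPM against 31.7 to 92.6 CPM. In the R1881 group the highest value of all 3 genes came from replicate 6. Their log2 fold changes were 0.09 (95% interval -0.54 to 0.73), 0.17 (-0.27 to 0.61) and 0.03 (-0.64 to 0.69), so neither a rise nor a fall of these 3 genes could be detected at this spread. Without combination replicate 4 all 3 turned negative, at -0.30, -0.09 and -0.35, and none passed. HSPA1A and HSPA1B lie side by side on chromosome 6 (GRCh38, chr6:31815543-31817946 and chr6:31827738-31830254), and 75.1% of the 50-base stretches of HSPA1A also occur in HSPA1B, so the division of reads between the pair is uncertain. Summed, the pair stood at 187 ± 53.3 CPM (SD, n = 10) under R1881 and at 226 ± 139 CPM (SD, n = 5) after darolutamide was added. The third gene of that cluster, HSPA1L, an HSP70 known mainly from testis, was 4.01, 5.33 and 7.86 CPM with R1881 and 7.18, 7.68, 6.07, 10.6 and 6.60 CPM with the combination. It passed as higher (log2 fold change 0.41, SE 0.138, adjusted p = 0.0222 from limma), but not without combination replicate 4, where the log2 fold change was 0.29, nor against R1881 libraries 71 to 75 alone (0.27, adjusted p = 0.197).

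The same libraries stood apart by the GC content of the transcripts. Relative to the median of combination replicates 1, 2 and 5, the deviation of a gene in replicate 4 rose with the GC content of its transcript over the 51 chaperone genes with a GC value (Pearson's r 0.80, Spearman's rho 0.75), and in replicate 3 it fell (-0.70 and -0.61). R1881 replicate 6 went the way of replicate 4 (0.80 and 0.73, against the R1881 median). These correlations are across genes of 1 library, which are not independent replicates. Over the 12886 genes used for the GC trend the same 3 libraries had the largest trends, 1.05, -0.68 and 0.66, where those of the other 12 lay between -0.38 and 0.37. Combination replicate 4 was the lowest of the 5 combination libraries in 30 chaperone genes and the highest in 16. The transcripts of HSPA1A, HSPA1B and HSPB1 are 59.8%, 58.8% and 65.3% GC, among the highest of the set, and HSPE1 and HSPA4 are 39.3% and 42.4%. After a correction for GC content in each library, chosen after the data had been seen, 20 of the 51 genes were lower and 11 higher. HSPB11, lower in the main fit, has no GC value and was left out here. After the correction HSPA8 passed as lower (log2 fold change -0.06, adjusted p = 0.0364 from limma), and DNAJB2, DNAJC4 and DNAJC27 passed as higher. HSPA1A, HSPA1B and HSPB1 did not pass after it, at 0.15, 0.24 and 0.01. Without combination replicates 3 and 4, 16 genes were lower and 7 were higher. How many of all genes passed after the correction, or without these libraries, was not computed.

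**Figure D2:**
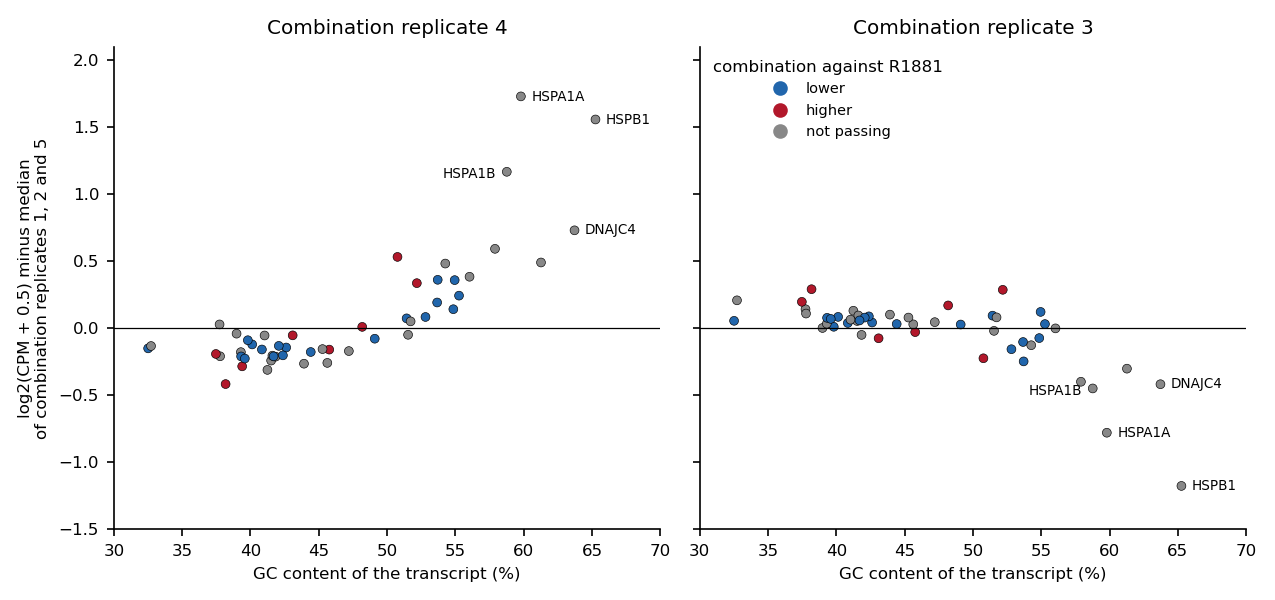
Deviation of combination replicate 4 (left) and replicate 3 (right) from the median of combination replicates 1, 2 and 5, on log2(CPM + 0.5), against the GC content of the transcript in percent, with 1 point for each of 51 chaperone genes, coloured by the result of the combination against R1881. HSPA1A, HSPA1B, HSPB1 and DNAJC4 lie far above 0 in replicate 4 and below 0 in replicate 3, while most genes of low GC content lie slightly below 0 in replicate 4.

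The HSP110 genes, whose products exchange the nucleotide of HSP70, moved in opposite directions. HSPA4, the abundant member, fell from 332, 370 and 386 CPM (lowest, median and highest) with R1881 to 319, 314, 337, 275 and 316 CPM in combination replicates 1 to 5. The groups overlapped only through combination replicate 3, and the log2 fold change was -0.22 (SE 0.045, adjusted p = 0.000539 from limma). HSPH1, which encodes HSP105, fell by 12.5% (log2 fold change -0.19, adjusted p = 0.00139 from limma). HSPA4L, a relative known for its role in the testis, rose from 14.4, 19.5 and 20.8 CPM to 31.0, 30.4, 35.6, 27.1 and 33.3 CPM, with no overlap. Its log2 fold change was 0.74 (SE 0.079, adjusted p = 4.8e-07 from limma), and 0.63 and 0.84 against the 2 runs of R1881 libraries. There were 5.13 ± 0.425 reads of HSPA4L per 100 of HSPA4 with R1881 (SD, n = 10, range 4.25 to 5.60) and 10.1 ± 0.442 with the combination (SD, n = 5, range 9.69 to 10.6), a ratio within each library that does not depend on its scaling. HSPA4L is 37.5% GC and lies at chr4:127781821-127840733 on the plus strand.

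DNAJC12 had the largest rise of the 52 genes. Its product is a J protein that serves the aromatic amino acid hydroxylases, which include phenylalanine and tyrosine hydroxylase. It was 16.5, 18.9 and 20.6 CPM (lowest, median and highest) with R1881 and 38.2, 36.2, 37.1, 29.7 and 35.5 CPM in combination replicates 1 to 5. Even the lowest combination library, replicate 4, was above the highest R1881 library. The mean went from 18.7 ± 1.38 CPM (SD, n = 10) to 35.3 ± 3.33 CPM (SD, n = 5), a log2 fold change of 0.90 (SE 0.064, adjusted p = 2.35e-09 from limma). It was 0.90 against R1881 libraries 51 to 55, 0.89 against 71 to 75 and 0.97 with library totals. None of its 50-base stretches occurs in another gene. DNAJC12 lies at chr10:67796669-67838188 on the minus strand, and its RefSeq promoter is shown as that of the gene that rose most; no heat shock element of either form is in its window.
DNAJC12: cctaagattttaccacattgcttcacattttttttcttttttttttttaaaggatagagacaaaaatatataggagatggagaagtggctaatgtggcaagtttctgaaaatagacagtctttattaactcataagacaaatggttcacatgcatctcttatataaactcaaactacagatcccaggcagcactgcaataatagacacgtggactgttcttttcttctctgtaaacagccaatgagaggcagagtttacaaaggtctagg
This stretch lies at chr10:67838169-67838438, minus strand, and ends 20 bases past the start.

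Other rises were found in genes of low level. HSPA12A, a distant relative of HSP70, rose from 5.04, 5.87 and 7.73 CPM (lowest, median and highest) to 9.17, 9.79, 10.4, 9.24 and 9.04 CPM in combination replicates 1 to 5 (log2 fold change 0.64, SE 0.082, adjusted p = 4.24e-06 from limma). HSPB8, the small heat shock protein that works with BAG3 in selective autophagy, rose from 2.57, 3.14 and 3.52 CPM to 4.91, 4.25, 5.68, 5.89 and 4.56 CPM (0.61, SE 0.087, adjusted p = 1.48e-05). In both genes the lowest combination library was above the highest R1881 library. DNAJC6, which encodes auxilin, the J protein that strips clathrin from vesicles, went from 4.68 ± 0.740 to 7.25 ± 0.444 CPM (log2 fold change 0.59), and DNAJC18, a J protein of the endoplasmic reticulum membrane, from 11.7 ± 1.06 to 15.7 ± 0.733 CPM (0.41), again without overlap. DNAJC28, a J protein placed in mitochondria, rose from 3.62 ± 0.499 to 4.82 ± 0.996 CPM (0.36), with overlap, and did not pass without combination replicate 3 (0.27). The largest fall was that of HSPA2, the HSP70 of spermatogenesis, whose mean of 1.03 ± 0.236 CPM with R1881 and 0.461 ± 0.127 CPM with the combination rests on a median of 15 reads per library. Its log2 fold change was -0.66 (SE 0.121, adjusted p = 0.000192 from limma), and the highest combination library reached the lowest R1881 library.

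**Figure D3:**
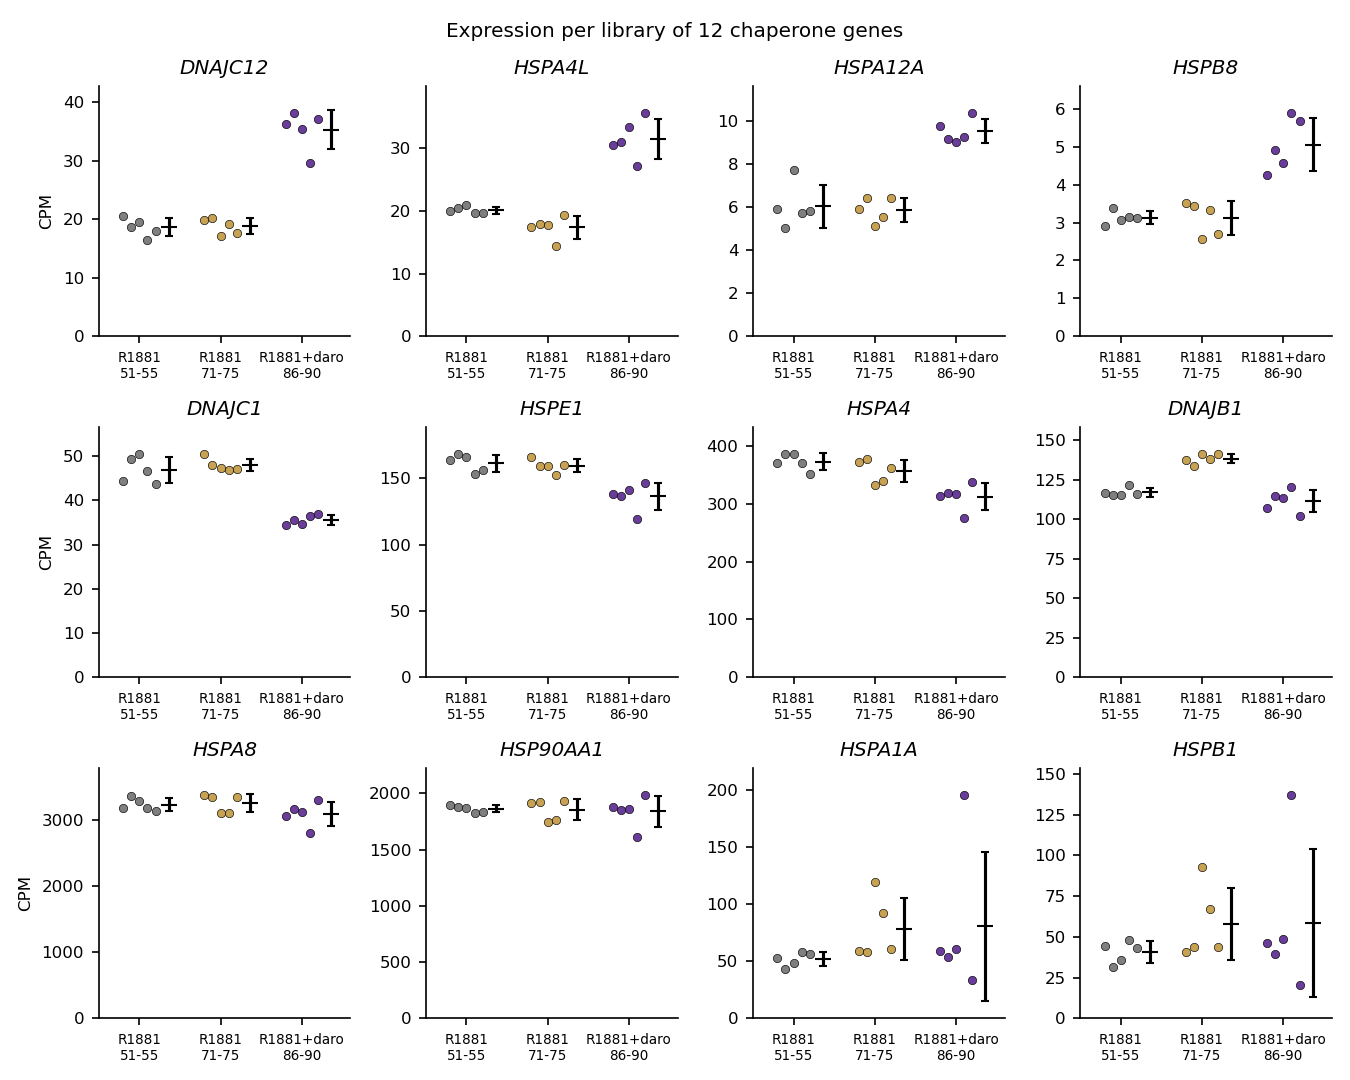
CPM of 12 chaperone genes in each library, with 1 point per library, for R1881 libraries 51 to 55, R1881 libraries 71 to 75 and combination libraries 86 to 90, and a bar for the mean ± SD (n = 5) of each run. The combination points lie above all R1881 points for DNAJC12, HSPA4L, HSPA12A and HSPB8 and below them for DNAJC1 and HSPE1, while single combination libraries stand far above the rest for HSPA1A and HSPB1.

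Among genes of the mitochondrial chaperones more were lower than higher in the main fit, but not with library totals. Of all 17272 genes, 4098 were lower and 3946 higher in the main fit, and 3030 were lower and 5326 higher with library totals. Of 10 such genes, 5 were lower, 1 (DNAJC28) was higher and 4 did not pass, with a median log2 fold change of -0.06 (0.01 with library totals, where 1 was lower and 2 were higher). HSPE1, the HSP10 lid of the mitochondrial chaperonin, fell from 152, 160 and 168 CPM (lowest, median and highest) to 136, 139, 146, 120 and 141 CPM in combination replicates 1 to 5, with every combination library below every R1881 library (log2 fold change -0.24, SE 0.041, adjusted p = 0.000124 from limma). HSPD1, the HSP60 barrel itself, whose gene stands head to head with HSPE1 on chromosome 2, fell by 6.9% (log2 fold change -0.10, adjusted p = 0.0425), close to the threshold, and did not pass with edgeR (adjusted p = 0.0834) or DESeq2 (adjusted p = 0.101), nor in most of the fits that left out 1 library (-0.06 without combination replicate 4). There were 12.6 ± 0.403 reads of HSPE1 per 100 of HSPD1 with R1881 (SD, n = 10) and 11.5 ± 0.259 with the combination (SD, n = 5). HSPA9, the mitochondrial HSP70 mortalin, went from 447 ± 24.1 to 405 ± 21.5 CPM (-0.14, adjusted p = 0.00964 from limma; -0.07 and not passing with library totals), and its J partner DNAJA3 from 111 ± 7.96 to 97.4 ± 15.2 CPM (-0.20, adjusted p = 0.0323). DNAJA3 did not pass without R1881 replicate 5 or without combination replicate 1, 2 or 3, where its log2 fold change was as small as -0.13, nor with library totals (-0.13, adjusted p = 0.154) or against libraries 51 to 55 alone (-0.14, adjusted p = 0.226). HSPA9 did not pass against libraries 71 to 75 alone (adjusted p = 0.128). DNAJC11, a J protein of the mitochondrial membranes, was lower at -0.18, but not with library totals (-0.11, adjusted p = 0.0706). The import motor subunit DNAJC19 (0.02), its relative DNAJC15 (0.01), DNAJC30 (-0.03) and DNAJC4 (0.20) did not pass.

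HSPE1 and HSPD1 also have many processed pseudogenes, and 50-base reads cannot always be placed. The 8 HSPE1 pseudogene rows held 268 ± 11.3 CPM (SD, n = 10) under R1881, which is 62.5% of the reads given to HSPE1 and its pseudogenes together, and 223 ± 16.1 CPM (SD, n = 5) in the combination libraries. The share was 27.9% for HSPD1, 34.5% for HSPB1, 18.4% for HSP90AB1, 17.3% for HSPA8 and 15.8% for HSP90AA1. Of 38 pseudogene rows in all, 10 were lower and 0 were higher, beside 23.7% of all genes lower and 22.8% higher. With pseudogene reads added to their parent gene, an alternative chosen after the data had been seen, 18 genes were lower and 8 higher, and HSPD1 (adjusted p = 0.0532 from limma) and DNAJC8 (adjusted p = 0.0556) no longer passed. Of the 51 genes with a transcript sequence, 14 shared over 10% of their 50-base stretches with another gene, among them HSPE1 at 48.2%, and 18 shared none. The other genes were not only pseudogenes: HSPE1 shared most with HSPE1-MOB4 (28.3% of its stretches).

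Among the cytosolic J proteins that feed HSP70, both DNAJA genes fell, DNAJA1 from 369 ± 15.4 to 326 ± 16.8 CPM (log2 fold change -0.18, SE 0.037, adjusted p = 0.000696 from limma) and DNAJA2 from 127 ± 5.58 to 113 ± 5.75 CPM (-0.17, adjusted p = 0.00177), the latter not passing with library totals. Of 5 DNAJB genes of the cytosol and nucleus, DNAJB5 (-0.30), DNAJB1 (-0.19) and DNAJB6 (-0.17), a suppressor of protein aggregation, were lower, and DNAJB2 (0.04) and DNAJB4 (0.11) did not pass. With library totals 1 of the 5 was lower (DNAJB5), DNAJB1 (adjusted p = 0.124) and DNAJB6 (adjusted p = 0.0875) did not pass, and DNAJB4 passed as higher (0.18, adjusted p = 0.0437). DNAJB5 was 15.5 to 18.5 CPM with R1881 and 14.2, 12.9, 12.2, 14.3 and 12.7 CPM with the combination, without overlap. DNAJB1, the J protein HSP40 that is strongly induced by heat, was the only one of the 52 genes that differed between the 2 runs of R1881 libraries in limma's test, where 1.1% of all genes did. In that test 9 of the 52 had an unadjusted p under 0.05, and the share of all genes at that unadjusted threshold was not computed. DNAJB1 was 117 ± 2.61 CPM in libraries 51 to 55 and 138 ± 3.09 CPM in libraries 71 to 75 (SD, n = 5 each, log2 difference 0.24, adjusted p = 0.0165 from limma). The combination libraries, at 114, 107, 102, 120 and 114 CPM in replicates 1 to 5, lay below the first run in all but replicate 4, which fell within it, and below all libraries of the second run. The log2 fold change of the combination was -0.07 against the first run (adjusted p = 0.251) and -0.31 against the second (adjusted p = 0.000238). The run difference did not pass without R1881 replicate 6, 7, 9 or 10, and the fall did not pass without combination replicate 3 (-0.16).

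J proteins with fixed places in the cell were mixed. Among 6 of the ribosome, the nucleus and RNA, DNAJC2, a J protein bound to ribosomes, and DNAJC9, a histone chaperone, fell without overlap, from 34.3 ± 1.80 to 29.8 ± 1.08 CPM (log2 fold change -0.20, adjusted p = 0.00103 from limma) and from 58.1 ± 2.93 to 50.7 ± 2.47 CPM (-0.19, adjusted p = 0.00114). DNAJC8 was just inside the threshold (-0.11, adjusted p = 0.0494) and lost the call under most alternatives (-0.07 without combination replicate 4), while DNAJC17 (-0.06), DNAJC21 (0.01) and DNAJC24 (-0.01) did not pass. Among 8 of the endoplasmic reticulum or secretory membranes, DNAJC1, whose product binds the ribosome and the lumenal HSP70, had the largest fall of the 52 genes apart from HSPA2. It was 43.7, 47.2 and 50.5 CPM (lowest, median and highest) with R1881 and 35.6, 34.4, 36.9, 36.4 and 34.6 CPM in combination replicates 1 to 5, with no overlap (log2 fold change -0.41, SE 0.040, adjusted p = 1.47e-07 from limma). DNAJB12 and DNAJB14, paired J proteins that bring the cytosolic HSP70 to misfolded membrane proteins, were lower at -0.28 and -0.19, and DNAJB14 did not pass against libraries 71 to 75 alone (-0.10). DNAJC25 (-0.12), DNAJC22 (-0.04), DNAJC16 (-0.04) and DNAJC14 (-0.04) did not pass. On vesicles and endosomes DNAJC5 (-0.11) and DNAJC13 (0.03) did not pass beside the rise of DNAJC6, and neither did DNAJC7 (-0.06), DNAJC27 (0.17) and the HSP70 relative HSPA14 (0.03). Without combination replicate 4, DNAJC5 (-0.25) and DNAJC30 (-0.13) passed as lower and DNAJC27 (0.24) as higher, and DNAJC27 also passed without R1881 replicate 2 (0.19). HSPB11 was lower at -0.15 (adjusted p = 0.0409) and lost the call with library totals, with libraries 71 to 75 alone and in most of the fits that left out 1 library. Of the 24 genes that did not pass, 14 had a 95% interval within 0.2 of 0 on either side.

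The 6 genes with a 3-unit heat shock element split evenly: DNAJA1, DNAJB6 and HSPD1 were lower, and HSPA8, HSP90AA1 and HSP90AB1 did not pass. No gene that rose held the 3-unit form, and HSPA4L, HSPB8, HSPA1L and DNAJC6, 4 of the 8 that rose, held the 2-unit form, beside 5 of the 18 lower genes with a window and 8 of the 21 that did not pass. Together the 52 genes summed to 12552 ± 293 CPM (SD, n = 10) in the R1881 libraries and 12012 ± 412 CPM (SD, n = 5) in the combination libraries. As a share of each library's own sum of CPM this was 1.18% ± 0.021 and 1.19% ± 0.052, and the 2 measures differed because the columns of the combination libraries sum to less.

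Related genes of the chaperone network, listed from general knowledge and called partner genes here, were more often lower than higher. They hold not only partners of these chaperones but also HSF factors, HSF1 target genes and mitochondrial proteases. Also among them are 12 chaperones of the endoplasmic reticulum, 11 of them lower, which add to the falls counted next. Of the 74 partner genes listed, 38 were lower, 30 did not pass and 6 were higher (23 lower and 9 higher with library totals), with a median log2 fold change of -0.13. Of all genes 23.7% were lower and 22.8% higher. Of the 2436 genes with a mean of at least 100 CPM, 1103 were lower and 413 were higher. Several partners are that abundant, and the partner counts were not compared with genes of like level. The TRiC chaperonin, which folds actin and tubulin, had 7 of 8 subunits lower, with a median of -0.13 and TCP1 the lowest at -0.31, but 2 of 8 with library totals. Of 6 prefoldin subunits, which hand clients to TRiC, 3 were lower (PFDN1 at -0.32, PFDN6 at -0.24 and PFDN2 at -0.22) and PFDN5 was higher at 0.12. Of 18 co-chaperones of HSP90, 6 were lower and 1 was higher, and their median was -0.07 (0.01 with library totals, where 4 were lower and 4 higher). FKBP5, an immunophilin and a well-known androgen target, fell most, from 1502 ± 87.4 to 152 ± 11.1 CPM (log2 fold change -3.30, SE 0.049, adjusted p = 1.37e-18 from limma). STIP1, the adaptor between HSP70 and HSP90, fell by 0.31 on the log2 scale, AHSA1, which activates the HSP90 ATPase, by 0.25, and PTGES3, the p23 co-chaperone, by 0.31. FKBP4, the relative of FKBP5, did not pass at -0.07.

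Among 9 exchange factors and ubiquitin ligases of HSP70, BAG3 (-0.30), BAG5 (-0.25) and BAG1 (-0.11) were lower, and BAG4 (0.39) and BAG2 (0.43) were higher. BAG3 fell while HSPB8, the small heat shock protein it binds, rose. Of 12 mitochondrial folding factors and proteases, 5 were lower, led by the nucleotide exchange factors of mortalin, GRPEL1 (-0.32) and GRPEL2 (-0.28), and HTRA2 was higher at 0.18. With library totals 2 of the 12 were lower. For HSF1 the log2 fold change was -0.03 and for HSF2 0.05, neither passing. Of the 4 genes of the HSF list, only HSBP1, which encodes a protein that binds HSF1 rather than a heat shock factor, was lower (-0.11). BAG1 (-0.04, adjusted p = 0.451) and HSBP1 (-0.04, adjusted p = 0.313) did not pass with library totals. Of 14 HSF1 target genes outside the chaperone names, some of which also stand in the lists above, 8 were lower and SERPINH1, the collagen chaperone, was higher at 0.97 from a mean of 0.841 CPM. Of 12 chaperones of the endoplasmic reticulum 11 were lower, with a median of -0.34 (-0.27 with library totals), beside -0.04 over the 52 genes. The 6 of them left out by name were all lower, with a median of -0.71, and ranged from -0.24 (DNAJB11) to -1.22 (DNAJB9).

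**Figure D4:**
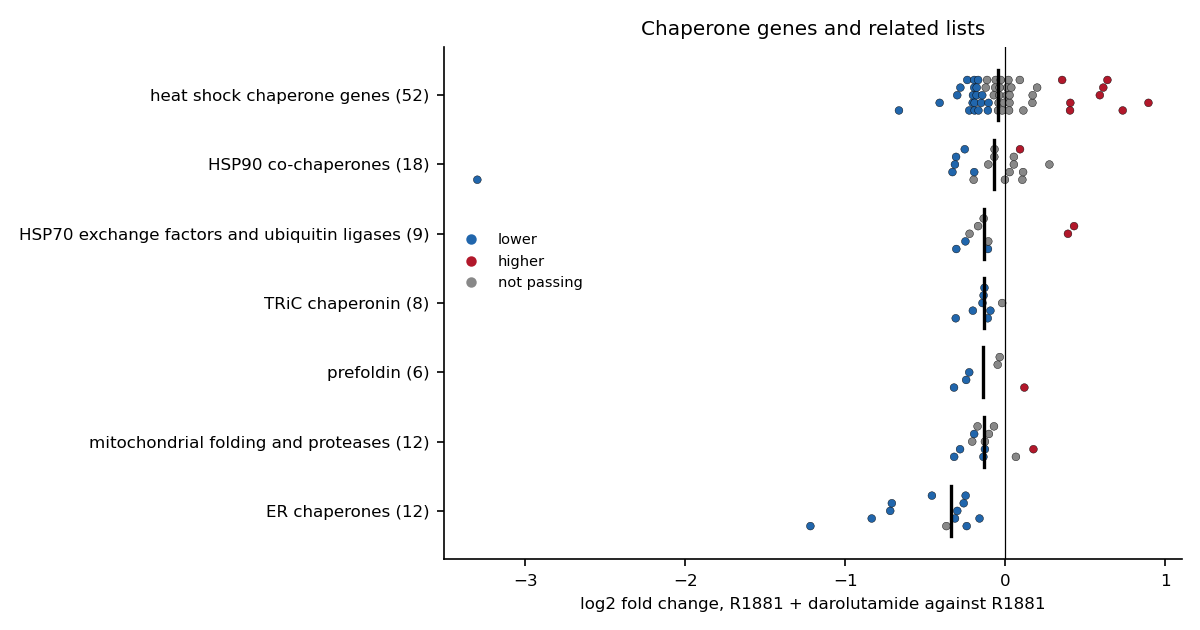
Log2 fold change (combination against R1881, log2(CPM + 0.5)) of the 52 chaperone genes and of 6 lists of partner genes, with 1 point per gene coloured by its result, the number of genes in parentheses and a bar at the median. The chaperone genes have a median of -0.04 and reach 0.90, the endoplasmic reticulum list has a median of -0.34, and FKBP5 stands alone at -3.30.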

How the data were processed

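Poly(A) RNA from 10 R1881 and 5 combination libraries was read as 50-base single-end reads, which the authors aligned to GRCh38 with STAR and counted per gene with featureCounts. What the authors deposited as CPM is a scaled signal: in each library 100% of the values were whole reads (within 0.001) times 1 factor, and the columns sum to 1005403 to 1078567. Versions, annotation, strand setting and the handling of reads with several matches are not given in the sources used here. The study calls the libraries biological replicates, and the p-values measure the spread between them.

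limma (3.58.1) was fitted on log2(CPM + 0.5) of all 17272 genes without a filter, 2-sided, with Benjamini-Hochberg adjusted p under 0.05. Fold changes are on that scale and understate those of low genes. Scripts were tested on simulated data. Alternatives on the recovered reads were edgeR (4.0.16), DESeq2 (1.42.0), voom and library totals. The members and lists were chosen with earlier results of these data known. Named genes were 13 core members, up to 10 of the largest rises and falls averaging 1 CPM or more, and the 2 of smallest p in each partner list; the remaining members are given by their fold change. Coordinates and transcripts are from GENCODE version 44, promoters from RefSeq. The group sizes and the R1881 dose follow the sample labels, which differ from the methods of the study.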

Additional observations from a re-analysis of the deposited data

Results flagged for a closer look

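In 13 of 104 groups of chaperone values (52 genes in 2 groups of libraries), 1 library lay far from the rest by Dixon's criterion. Chance gives about 1 in 20 for independent normal values. These groups share the same libraries and are not independent, and the share among all genes was not computed. Of the 13, 8 came from combination replicate 4 and 4 from R1881 replicate 6, the libraries with the steepest positive GC trends (1.05 and 0.66). Whether the GC trend accounts for the flagged values was not tested. In combination replicate 4, HSPA1A (196 CPM), HSPA1B (275 CPM), HSPB1 (137 CPM) and DNAJC30 (34.04 CPM) were above the other combination libraries, and DNAJC13 (97.3 CPM), DNAJC21 (48.3 CPM), DNAJC7 (109 CPM) and DNAJC8 (129 CPM) were below them. In R1881 replicate 6, DNAJB2 (76.6 CPM), DNAJC11 (83.1 CPM) and DNAJC30 (29.5 CPM) were above and HSPA14 (41.8 CPM) was below the other R1881 libraries. HSPA12A stood apart in R1881 replicate 7 (7.73 CPM), which was still below every combination library.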

How the results depend on the processing

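Scaling by library totals gave 10 chaperone genes lower in place of 20, a median log2 fold change of 0.028 in place of -0.042, and 23 partner genes lower in place of 38. Among all genes it gave 3030 lower in place of 4098 and 5326 higher in place of 3946. For the other alternatives the counts over all genes were not computed. Asking for a log2 fold change of at least 0.5 left 1 gene lower (HSPA2) and 5 higher. Partner genes higher were 10 with voom and 3 with the replicate block, in place of 6. The fit with the replicate number as a replicate block gave 16 chaperone genes lower and 7 higher, but same-numbered libraries share only a number, with correlations of -0.139 to 0.335 and 0 of 5 combination libraries closest to their own. Leaving out 1 library at a time gave 17 to 20 lower, 7 to 9 higher, a median of -0.073 to -0.038, and 32 to 46 partner genes lower and 3 to 6 higher (3 without combination replicate 5). The run difference of DNAJB1 ranged from 0 to 1 gene and was lost without R1881 replicate 6, 7, 9 or 10.

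Of 783 values of the 27 named genes under the alternatives, 724 kept their direction and side of the threshold, 36 lost and 2 gained the call, and 21 changed sign, all in 6 genes that did not pass the test. Of the 27, 15 kept direction and result throughout. The calls that changed were those of DNAJA3, DNAJB1, DNAJC28, HSPA1L, HSPA9, HSPD1 and HSPA8, and the cause was not tested. With the replicate block HSPA1L (0.32, adjusted p = 0.217 from limma) and HSPA9 (-0.12, adjusted p = 0.0568) did not pass. The signs changed as follows, and the cause was not tested. With library totals HSP90AA1 was at 0.053, HSP90AB1 at 0.038 and HSPA8 at 0.0013. With voom HSP90AA1 was at 0.0048, HSPA1A at -0.042 and HSPB1 at -0.044, and with the replicate block HSPB1 was at -0.0036. Against R1881 libraries 71 to 75 alone HSPA1A was at -0.17, HSPA1B at -0.067 and HSPB1 at -0.19. Without combination replicates 3 and 4 HSP90AA1 was at 0.0051, HSPA1A at -0.11 and HSPB1 at -0.070, and with the GC correction HSP90AA1 was at 0.0060. Leaving out 1 library gave -0.047 to 0.028 for HSP90AA1, -0.053 to 0.0011 for HSP90AB1, -0.30 to 0.33 for HSPA1A, -0.088 to 0.32 for HSPA1B and -0.35 to 0.33 for HSPB1, with the sign changed without combination replicate 4 in all 5 and also without R1881 replicate 7 or 10 in HSPB1. HSPD1 and DNAJC8 lay at the threshold: without combination replicate 4 their log2 fold changes were -0.06 and -0.07. DNAJA3 was at -0.13 and DNAJB1 at -0.16 without combination replicate 3, neither passing. Depth limits the rare genes most, with a median of 15 reads per library for HSPA2.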
